A study of Mus musculus with 8 samples.

Results

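The effect of epidermal growth factor (EGF) on histone H3 acetylated at lysine 27 (H3K27ac) was examined in 266-6 cells, a mouse pancreatic acinar line, that had received a non-targeting siRNA. The comparison rests on 4 of the 8 libraries of the series, chosen by their titles: 2 control libraries from vehicle-treated cells and 2 EGF libraries. All 4 carried the non-targeting siRNA NT5 at 25 nM, held for 48 h, whose sequence is shown because it is the agent common to both groups.
NT5: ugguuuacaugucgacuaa
The cells were kept without serum overnight and then received EGF at 40 ng/ml or 0.1% bovine serum albumin for 8 h. The remaining 4 libraries carried siRNA against Arid1a, without and with EGF at the same dose and time. They are called knockdown libraries after that siRNA; Arid1a itself was not analysed here. Whether duplicates are separate cultures is not in the labels, and the p-values therefore cover only the variation among these samples, part or all of which may be technical.

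H3K27ac is placed mainly by the acetyltransferases p300 and CBP, and it marks active promoters and enhancers. EGF binds its receptor, a tyrosine kinase that signals through Ras and the ERK kinases to transcription factors of the AP-1 and ETS families. In the pancreas, this pathway is known for its part in the conversion of acinar cells to duct-like cells. No gene annotation of build mm9 was used here, so each site is given by its position alone and no gene name is attached to any of them. For the same reason acinar marker genes were not analysed here.

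Peaks had been called library by library. The control libraries held 22167 and 28281 peaks covering 34.3 and 47.2 Mb, and the EGF libraries 22361 and 23080 peaks covering 33.9 and 35.5 Mb. Control library 2 thus stood apart, while control library 1 resembled the EGF libraries. Peaks numbered 25224 ± 4323 in control and 22720.5 ± 508 in EGF libraries (SD over 2 libraries in each group; exact permutation p = 1, two-sided, where the smallest possible is 0.33). Median peak width was 1207 and 1270 bp in control and 1195 and 1218 bp in EGF libraries (exact permutation p = 0.667). Read depth is unknown, and counts of peaks and their widths can move with it.

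Merging peaks that overlapped by at least 1 bp gave 30500 regions. All 4 libraries had a peak in 17943 of them (58.8%), and these shared regions made up 80.5% of the merged length with a median width of 1900 bp. A further 4763 regions were found in control library 2 alone, against 439 in control library 1 alone, 476 in EGF library 1 alone and 718 in EGF library 2 alone. Most of the merged length therefore lay in regions with a peak under both treatments, although a library need not cover the whole of a region. Differences between the treatments were looked for in 3 ways: how strong a shared region was within its library, how wide it was, and which regions had a peak in 1 group only.

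Strength was first read from the deposited fold enrichment, the ratio of a region's signal over the background that the peak caller used. Because a ratio can change through either term, the fold and the −log10 p of each peak were solved together under a Poisson model. This gave the background level and the pileup (a modelled height of stacked reads, on the caller's scale) that yield both. All peaks of the 8 lists had a solution. The median background in shared regions was 1.76 and 1.71 in control and 1.53 and 1.56 in EGF libraries, and the median pileup was 12.7, 14.9, 11.7 and 12.6 in the same order. These levels are estimates, because how the caller was set is not given in the sources used here. Values are given below as percentiles within a library, from 0 for the weakest to 100 for the strongest shared region.

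The background differed with EGF in a way that the duplicates shared. Across the 17943 shared regions, Spearman's rho of the background was 0.924 between the control libraries and 0.931 between the EGF libraries, but 0.375 to 0.408 between a control and an EGF library. The knockdown libraries fell on the same sides: over the 16851 regions held by all 8 libraries, rho was 0.927 to 0.955 among vehicle libraries, 0.899 to 0.942 among EGF libraries and 0.346 to 0.413 between them. Pileup parted the libraries far less, with 0.938 and 0.948 within groups and 0.895 to 0.903 between control and EGF libraries. Fold enrichment lay between the other measures, at 0.908 and 0.919 within and 0.717 to 0.752 between groups. These are correlations across regions within the same libraries, and regions are not independent replicates.

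**Figure D1:**
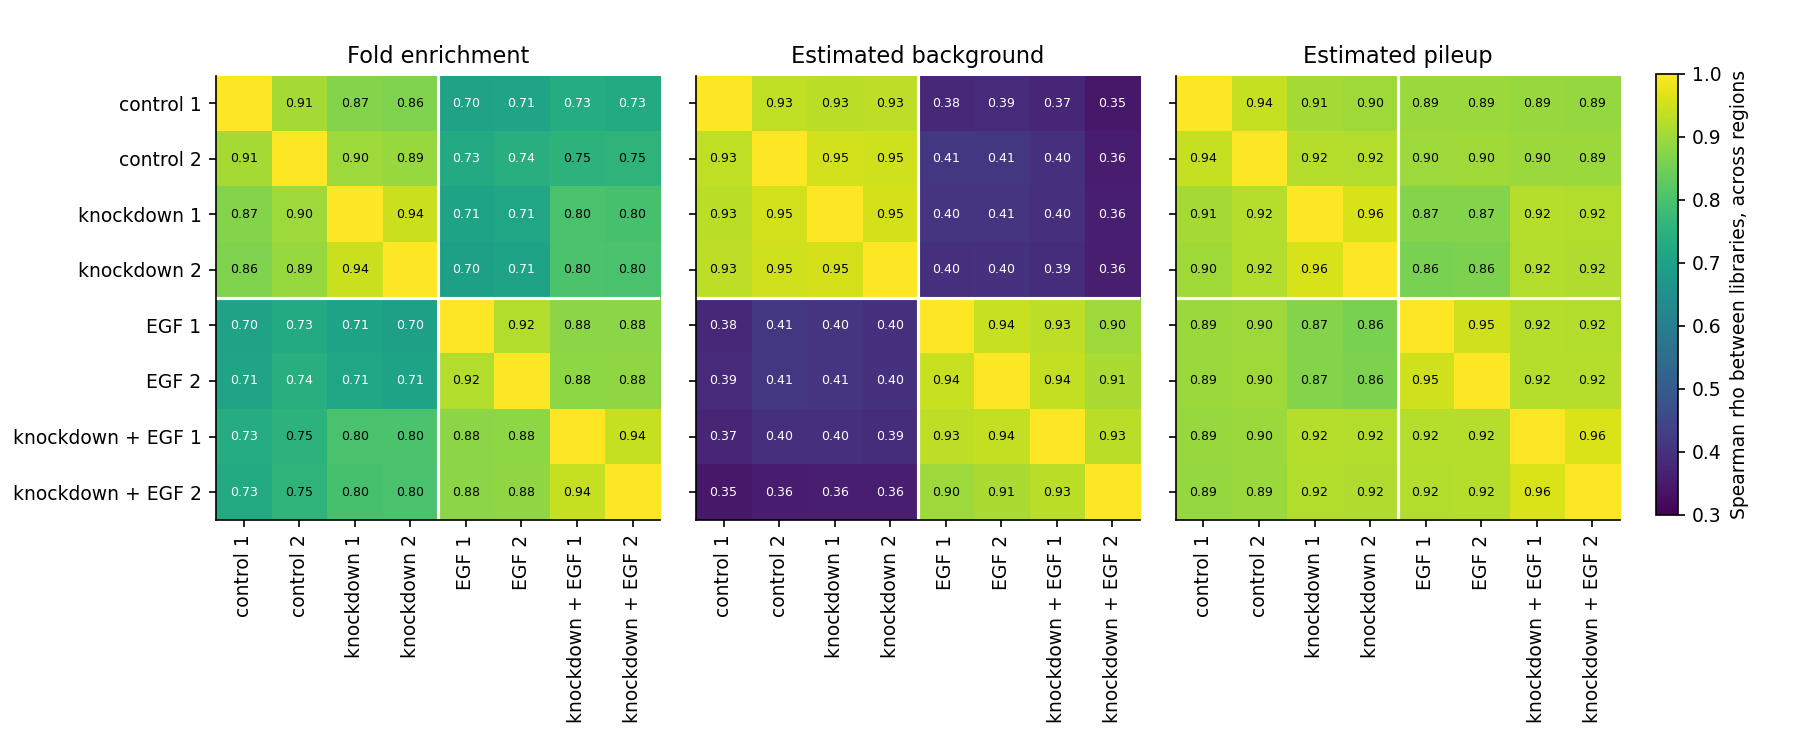
Spearman's rho between each pair of libraries across the 16851 regions held by all 8 libraries, for fold enrichment, estimated background and estimated pileup; white lines part vehicle from EGF libraries. Background was 0.346 to 0.413 between vehicle and EGF libraries and at least 0.899 on either side, while pileup was 0.859 to 0.922 between the sides.

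By fold percentile alone, many shared regions changed with EGF. With limma over the 17943 shared regions, 2638 were higher (14.7% of those tested) and 2687 were lower (15%) at an adjusted p under 0.05. The groups did not overlap in 5691 higher (31.7%) and 5714 lower regions (31.8%). Ranked within whole lists instead, 1636 were higher and 3001 lower. The estimated background was lower with EGF in 98.4% of the fold-higher regions and in 13.0% of the fold-lower ones, against 68.5% of all shared regions. Across shared regions the fold difference ran against the background difference (Pearson's r = -0.76, n = 17943), where both terms come from the same peaks. Measured in the knockdown libraries, the background difference also ran against the fold difference of the control-siRNA libraries (r = -0.71, n = 16851). Whether an input library stood behind the backgrounds of both sets is not known. The background differences of the sets correlated with r = 0.94, so the knockdown value is not separate support. EGF and the background level used by the caller cannot be told apart for fold enrichment.

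When the 16851 regions held by all 8 libraries were split into 5 equal bins by the background difference of the knockdown libraries, the share called fold-higher went from 48.4% in the lowest bin to 0.534% in the highest. The share called fold-lower went from 0.445% to 53.0%. Pileup calls were spread far more evenly over the same bins. Between 1.45% and 3.09% of regions were called pileup-higher and between 1.01% and 3.11% pileup-lower, and both ran the opposite way along the bins. Width calls ranged from 0.208% to 0.446% wider and from 1.19% to 2.40% narrower. The sections below therefore lead with pileup percentile, a measure that was chosen after these values were seen, and give fold beside it.

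**Figure D2:**
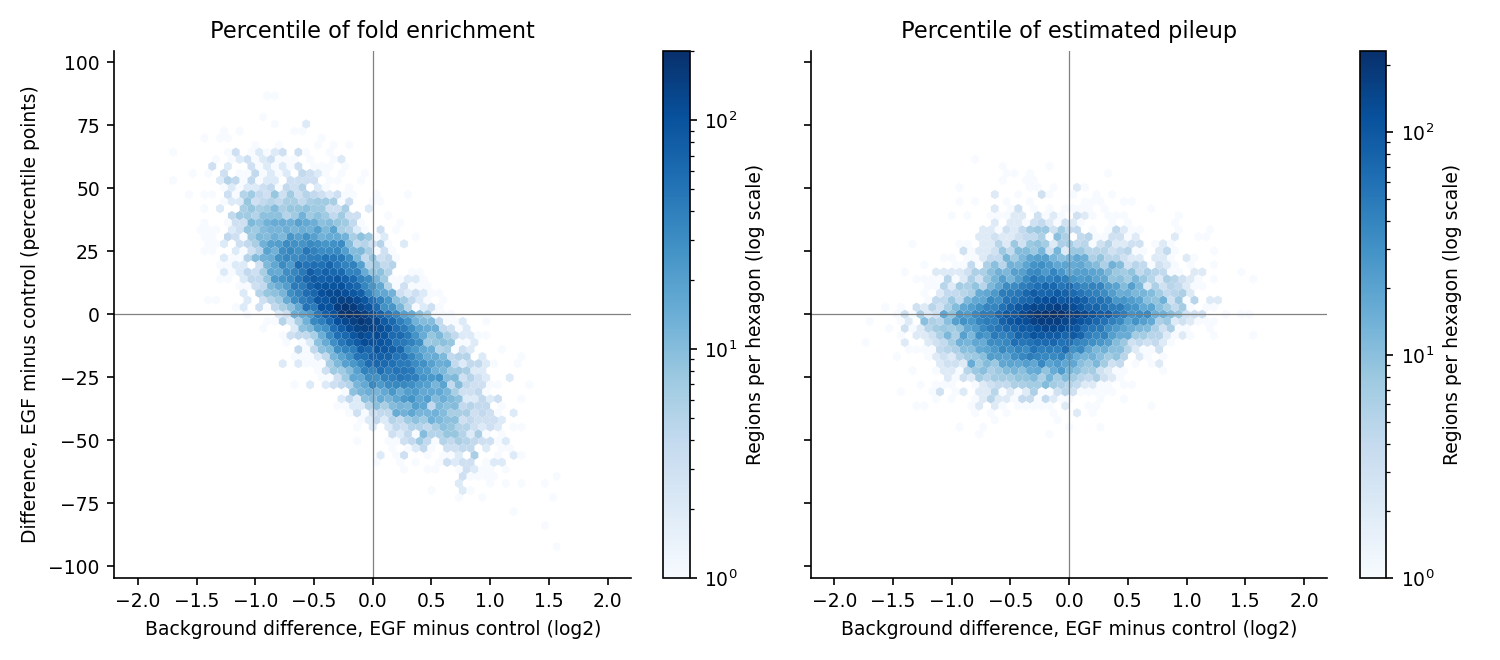
Each shared region's difference between EGF and control in estimated background (horizontal, log2) against its difference in fold percentile (left) and pileup percentile (right), as counts of regions per hexagon on a log colour scale. The fold differences slope downward (r = -0.76) and the pileup differences do not (r = 0.13).

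**Figure D3:**
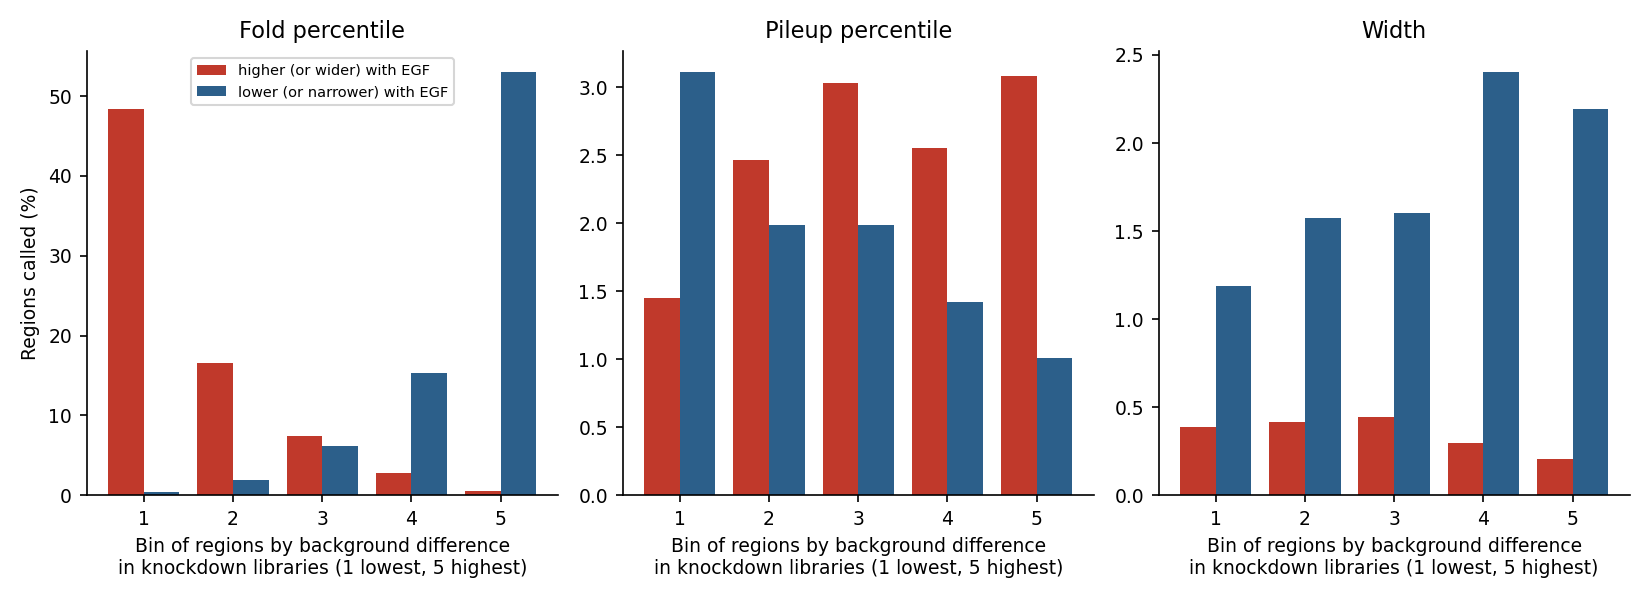
Percent of regions called with limma as higher or wider (red) and lower or narrower (blue) with EGF, in 5 bins of the 16851 regions ordered by the background difference measured in the knockdown libraries. Vertical axes differ between panels; fold calls pass from 48.4% higher to 53.0% lower along the bins.

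By pileup percentile, EGF was accompanied by a rise of 447 shared regions (2.49% of the 17943 tested) and a fall of 337 (1.88%) at an adjusted p under 0.05 with limma. Values of the groups did not overlap in 4340 regions that were higher (24.2%) and 4626 that were lower (25.8%). The called regions moved by a median of 28.6 and -24.4 percentile points, against a median of -0.26 for all shared regions. Most pileup calls also had a fold call of the same direction: 313 of the 447 and 196 of the 337, with 10 and 20 called the opposite way. Of all shared regions, 14.7% were fold-higher and 15% fold-lower. Pileup was solved from the fold of the same peak, so the measures are not independent. Pileup differences had an SD of 11.1 points across shared regions, and 13 regions rose by over 50 points while none fell by as much. Fitted on the 4 libraries alone, limma called 0 regions in either direction (3451 at an unadjusted p under 0.05). With all 8 libraries but 1, it called from 12 higher (without EGF library 2) to 269 (without knockdown library 2) and from 9 lower (without either EGF library) to 153 (without knockdown library 2 with EGF).

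The region with the greatest rise was chr3:37538833-37540256 (build mm9, as are all positions here). Its pileup percentile was 8.32 and 5.81 in control and 68.9 and 67.3 in EGF libraries, a difference of 61.0 ± 6.23 points (SE; limma adjusted p = 0.00553). It passed from among the weakest shared regions in control cells to the stronger ones with EGF. Its fold percentile rose from 0.529 and 2.70 to 89.3 and 86.6, while its background was 2.25 and 1.8 in control and 1.12 and 1.17 in EGF libraries. The region chr19:27619868-27622656 followed, with pileup percentiles of 5.89 and 12.5 in control and 70.0 and 65.0 in EGF libraries (58.3 ± 5.86 points, SE; limma adjusted p = 0.00553). In chr11:71629840-71634432 they were 32.2 and 22.1 in control and 84.3 and 85.9 in EGF libraries (58 ± 6.27 points; limma adjusted p = 0.00603).

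For chr16:22439147-22441169 the background moved the other way. Its pileup percentile was 32.5 and 28.4 in control and 83.7 and 87.7 in EGF libraries (55.2 ± 5.70 points, SE; limma adjusted p = 0.00553), although its background was higher with EGF, at 2.17 and 2.22 against 1.89 and 1.68. Its fold percentile rose with it, from 25.2 and 28.4 to 69.7 and 76.1. The background was lower with EGF in the other 9 of the 10 regions with the greatest rises. These 10 regions were 1424 to 4593 bp wide and rose by 52.4 to 61.0 points, and all 10 were also called by fold percentile. Their control and EGF values did not overlap, which was one condition of their choice.

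The greatest fall was in chr15:77226204-77229712, with pileup percentiles of 61.2 and 69.4 in control and 18.8 and 14.7 in EGF libraries (-48.6 ± 6.46 points, SE; limma adjusted p = 0.00942). Its fold percentile fell as well, from 70.2 and 81.2 to 28.7 and 20.5, on a background of 1.60 and 1.48 in control and 1.34 and 1.41 in EGF libraries. In this region pileup, fold and background were all lower with EGF. A pair of neighbouring regions also fell together: chr5:151944245-151947025 had pileup percentiles of 70.6 and 74.2 in control against 32.0 and 24.1 in EGF libraries (-44.3 ± 5.99 points, SE; limma adjusted p = 0.00957), and chr5:151936219-151941004 had 66.1 and 65.3 against 31.5 and 23.5 (-38.2 ± 6.00 points; limma adjusted p = 0.0152). The 10 regions with the greatest falls differed by -48.6 to -39.5 points, and 7 of them were also called by fold percentile. One of the remaining 3, chr5:21604167-21607086, held pileup percentiles of 59.4 and 66.4 in control and 15.8 and 17.2 in EGF libraries, but fold percentiles of 38.7 and 58.5 against 30.4 and 28.8 (limma adjusted p = 0.113), with a background of 2.28 and 2.05 against 1.26 and 1.30.

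**Figure D4:**
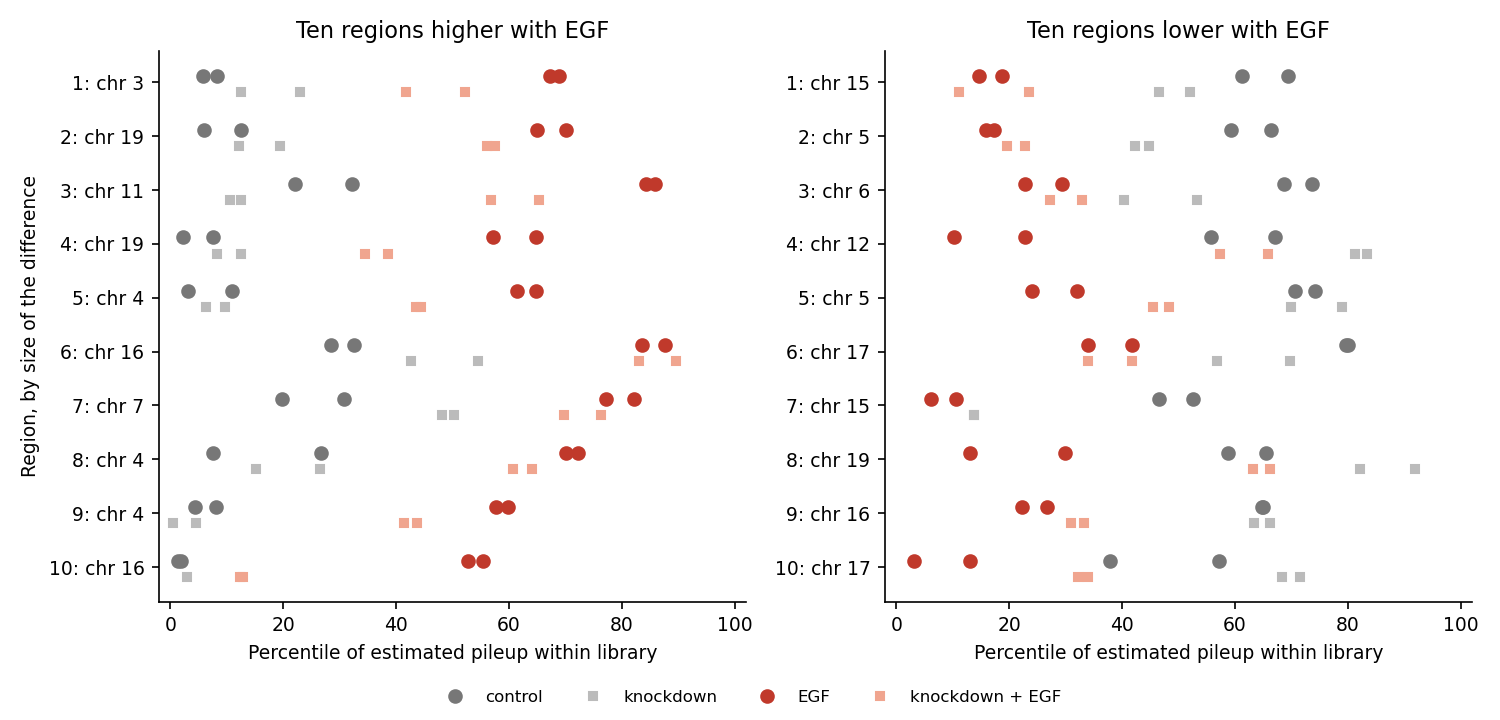
Pileup percentile within each library for the 10 regions with the greatest called rise (left) and the 10 with the greatest called fall (right) with EGF; circles are control-siRNA and squares knockdown libraries, 2 per group. Control (grey) and EGF (red) circles do not overlap in any of the 20 regions, by the choice of the regions; chr 3, with the greatest rise, goes from 8.32 and 5.81 to 68.9 and 67.3.

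The regions with the greatest changes in fold percentile are given with their pileup and background, which were solved from the same fold values. The region chr11:5661627-5662908 had a fold percentile of 93.5 and 90.5 in control and 0.602 and 0.312 in EGF libraries, the greatest fall of all shared regions (-91.5 ± 6.76 points, SE; limma adjusted p = 0.000402). Its pileup percentile was 83.6 and 74.8 in control and 69.8 and 72.3 in EGF libraries (-8.11 ± 3.45 points; limma adjusted p = 0.197), while its background was 1.48 and 1.29 against 3.8 and 4.44. The knockdown libraries gave a background of 1.31 and 1.26 without and 4.03 and 4.27 with EGF at the same site. In chr4:126920552-126921811 the fold percentile was 89.2 and 95.7 in control and 3.82 and 16.0 in EGF libraries, at pileup percentiles of 79.3 and 88.1 against 79.1 and 89.3. By these solved values, its pileup kept its place in the order while its fold went from near the top to near the bottom. Reads were not analysed here. Of the 10 regions with the greatest fold falls, 2 were called by pileup, and of the 10 with the greatest fold rises, 7 were. The background was higher with EGF in all 10 of the former and lower in all 10 of the latter, a direction that choosing regions by their fold change favours.

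As a reference, 5 regions were chosen for their place at the top of the fold rank in all 4 libraries, so that their constancy in fold is no finding. They were chr4:126698091-126699962, chr7:36587164-36588064, chr18:7868164-7870487, chr15:96114485-96120132 and chr17:46991850-46996080, with fold percentiles between 99.8 and 100 in each library. Among all shared regions, those in the highest of 5 bins by control fold percentile were called fold-lower in 34.4% of cases and pileup-lower in 3.03%; control values set these bins and also enter the calls. Among the 5 reference regions, only chr17:46991850-46996080 changed in width, from 3884 and 4231 bp in control to 2684 and 2680 bp in EGF libraries (log2 difference -0.60 ± 0.08, SE; limma adjusted p = 0.0302).

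In width, measured as covered length, more shared regions narrowed than widened with EGF. With limma on log2 covered length, 62 of the 17943 shared regions were wider (0.346%) and 320 were narrower (1.78%) at an adjusted p under 0.05. Widths of the groups did not overlap in 2353 regions that were wider (13.1%) and 6053 that were narrower (33.7%). The median log2 width difference over all shared regions was -0.11, and the calls are not corrected for this shift. After quantile normalization, which removes such a shift, 207 regions were wider and 285 narrower. Without control library 2 the counts were 581 wider and 265 narrower, the majority on the other side. Without either knockdown vehicle library and in a fit of the 4 libraries alone, limma called 0 regions in either direction (2437 at an unadjusted p under 0.05 in the latter), and without EGF library 1 it called 0 wider and 10 narrower. The remaining fits that left out 1 library gave 5 to 100 wider and 36 to 800 narrower regions.

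Among the widest gains was chr6:137156740-137160606, which had 584 and 696 bp of peak in control and 3853 and 3761 bp in EGF libraries (log2 difference 2.58 ± 0.21, SE; limma adjusted p = 0.0182). A short peak in control cells was thus a peak over nearly the whole region with EGF, and its pileup percentile rose from 17.8 and 25.0 to 46.0 and 50 (26.6 ± 5.90 points, SE; limma adjusted p = 0.0406). The greatest widening, in chr6:129372153-129376659, was from 404 and 546 bp in control to 2905 and 4507 bp in EGF libraries (log2 difference 2.95 ± 0.27; limma adjusted p = 0.0246). Its pileup percentile rose from 2.71 and 0.323 in control to 22.0 and 23.2 in EGF libraries (21.1 ± 4.64 points, SE; limma adjusted p = 0.0445), and its fold percentile was called higher as well (28.0 ± 6.10 points; limma adjusted p = 0.00902). The broad region chr11:42995432-43001510 widened from 1251 and 2211 bp to 6035 and 5650 bp (log2 difference 1.81 ± 0.30; limma adjusted p = 0.0453) at pileup percentiles of 43.1 and 38.4 against 43.4 and 47.8. There the fold percentile rose from 11.6 and 13.1 in control to 51.7 and 58.8 in EGF libraries (limma adjusted p = 0.00195). The background of this region was lower with EGF, at 1.4 and 1.3 against 2.5 and 2.4. Widening therefore occurred with a rise in pileup in some regions and at a like pileup in others. The part of the background in it was not tested.

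The greatest narrowing was in chr12:103933452-103938523, from 3186 and 5072 bp in control to 308 and 494 bp in EGF libraries (log2 difference -3.37 ± 0.31, SE; limma adjusted p = 0.0199). In chr3:152155356-152159471 the covered length was 3298 and 4116 bp in control and 339 and 447 bp in EGF libraries (log2 difference -3.24 ± 0.19; limma adjusted p = 0.0181). Its background was 1.43 and 1.47 in control and 2.44 and 2.02 in EGF libraries. Its fold percentile was called lower (-49.2 points, limma adjusted p = 0.00167). In chr15:57907188-57909012 it was 1664 and 1825 bp against 303 and 243 bp (log2 difference -2.68 ± 0.16; limma adjusted p = 0.0127), with pileup percentiles of 59.6 and 62.1 against 72.3 and 57.9. None of the 10 regions with the greatest narrowing was called by pileup percentile, and 4 of the 10 with the greatest widening were. By fold percentile, 3 of the former and 6 of the latter were called. The background was lower with EGF in 4 of the former and in 8 of the latter.

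Changes in width were mostly 2-sided. Of the 62 wider regions, 47 extended by at least 100 bp at both edges and 15 at 1 edge, and their median covered length was 1065 bp in control and 2278 bp in EGF libraries. Of the 320 narrower regions, 238 drew back at both edges, 80 at 1 edge and 2 at neither, with medians of 2586 and 1138 bp. At least 1 of the 4 libraries had more than 1 peak within the region in 9 of the wider and 73 of the narrower regions, so covered length there leaves out gaps between peaks. The widest shared region, chr11:74261310-74322286, was covered over 49796 and 60976 bp in control and 39273 and 38159 bp in EGF libraries, which did not pass the test (log2 difference -0.51 ± 0.11, SE; limma adjusted p = 0.0779). Its pileup percentile was 91.9 and 85.5 against 91.4 and 93.5.

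**Figure D5:**
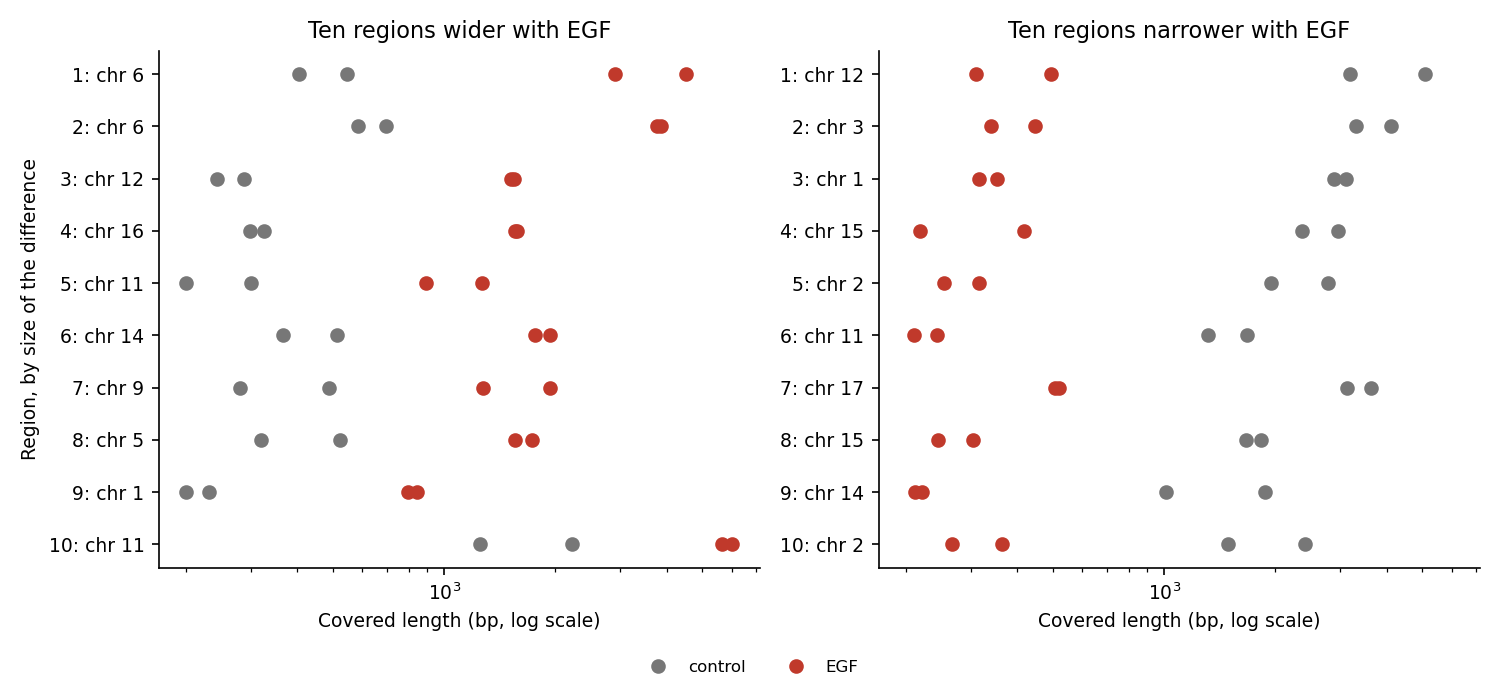
Covered length in bp (log scale) in each control (grey) and EGF (red) library, 2 per group, for the 10 regions with the greatest called widening (left) and narrowing (right). Groups do not overlap, by the choice of the regions; the second region on the left goes from 584 and 696 bp to 3853 and 3761 bp.

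Some regions changed in every measure. Of the 17943 shared regions, 16 were called higher and 12 lower in pileup percentile, fold percentile and width together. Pileup was solved from the fold of the same peak, so a joint call of pileup and fold is not separate support. In chr7:88224598-88226834 the covered length was 572 and 807 bp in control and 2180 and 2219 bp in EGF libraries (log2 difference 1.69 ± 0.20, SE; limma adjusted p = 0.0265), and the pileup percentile was 30.8 and 19.8 against 77.2 and 82.1 (54.4 ± 6.04 points; limma adjusted p = 0.0064). In chr11:76228267-76233405 it was 1407 and 2010 bp against 5015 and 4752 bp, with pileup percentiles of 30.9 and 12.2 against 66.2 and 74.2. Both regions were thus weaker and shorter in control cells than with EGF. In control libraries chr11:76228267-76233405 was still above the median covered length of shared regions (1395 and 1715 bp).

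In the reverse direction, chr17:33915460-33917207 went from 1623 and 1748 bp in control to 637 and 639 bp in EGF libraries (log2 difference -1.40 ± 0.15, SE; limma adjusted p = 0.0235). Its pileup percentile went from 57.3 and 37.8 to 13.0 and 3.07 (-39.5 ± 7.39 points; limma adjusted p = 0.0248). The region chr5:151936219-151941004, named above for its fall in pileup, went from 4606 and 4742 bp to 1820 and 1769 bp (log2 difference -1.38 ± 0.12; limma adjusted p = 0.0199). In chr15:88031478-88034917 the peak shrank from 2362 and 3440 bp to 981 and 1090 bp and its pileup percentile from 52.5 and 46.5 to 6.16 and 10.6. The knockdown libraries had 1499 and 1285 bp there without EGF and no peak with it.

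Gain or loss of a whole peak was found mainly in narrow and weak regions. Regions counted as gained where both EGF libraries and neither control library had a peak numbered 688 (2.26% of the 30500 regions). Those counted as lost, in the reverse case, numbered 1508 (4.94%). Patterns that cross the groups were also found: 698 regions (2.29%) had a peak in control library 2 and EGF library 2 alone, and 438 in control library 2 and EGF library 1 alone. Gained regions had a median width of 846 bp and lost ones 963 bp, under the 1900 bp of shared regions. Merged width rose with the number of libraries that held a region, however. Its median was 485 bp for 1 library, 888.5 bp for any 2 (gained and lost regions included) and 1096 bp for 3. The widths of gained and lost regions were thus near those of regions held by any 2 libraries. Their peaks were weak: the median of the lower fold percentile within the whole list of the 2 libraries that held them was 14.3 for gained and 15.0 for lost regions. At least the 50th percentile was reached by 28 gained (4.07%) and 37 lost regions (2.45%), and the 90th by none. Without control library 2 there were 2081 gained and 1947 lost regions, and without control library 1 there were 753 and 6271, and with all lists cut to the same length there were 1228 and 1114. The balance of gain and loss thus turned with the control library used and with the length of the lists. Without EGF library 1 and EGF library 2 there were 1406 and 1164 gained and 2021 and 2300 lost regions.

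Covered length was also tested. It comes from the same peak lists, so its calls are not separate support for the gained and lost regions. With limma on log2(covered bp + 200), 497 of 24104 regions were higher with EGF (2.06%) and 1500 were lower (6.22%) at an adjusted p under 0.05. The split moved with the scaling, since quantile normalization gave 996 higher and 1122 lower and lists cut to equal length gave 935 and 1396. Without control library 2 there were 1659 higher and 1266 lower regions, without EGF library 1 there were 383 and 916, without the knockdown vehicle libraries 367 and 371 higher and 974 and 977 lower. A fit of the 4 libraries alone called 0 in either direction (4625 at an unadjusted p under 0.05).

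The gained region with the strongest peaks was chr11:101645191-101646591, without a peak in either control library and with 1401 and 1371 bp of peak in the EGF libraries, at the 92.8 and 83.8 percentile of fold in their lists (log2 difference in covered length 2.99 ± 0.22, SE; limma adjusted p = 0.0079). The knockdown libraries repeated this pattern, with no peak without EGF and 1391 and 1352 bp with EGF. In chr3:101303231-101305581 the EGF libraries had 1403 and 2351 bp of peak at the 90.7 and 80.0 percentile. It had a peak of 714 bp in 1 knockdown library without EGF (log2 difference 3.34 ± 0.70; limma adjusted p = 0.0446). In chr15:64729153-64731019 they had 1706 and 1841 bp (log2 difference 3.30 ± 0.22; limma adjusted p = 0.0079). Of the 10 strongest gained regions 9 passed the test. The test used the same covered lengths that defined them as gained, so passing it is not separate support. A region without a called peak may still carry acetylation below the caller's limit.

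The 10 strongest lost regions were 298 to 1456 bp wide. In chr9:107546700-107546997 the control libraries had 257 and 298 bp of peak, at the 77.7 and 86.1 percentile of fold in their lists, and the EGF libraries had none (log2 difference -1.25 ± 0.25, SE; limma adjusted p = 0.0394). The knockdown libraries had a peak there without EGF (291 and 298 bp) and with it (198 and 265 bp), on a background of 1.11 and 1.31 against 2.93 and 3.10. In chr15:88077852-88079307, by contrast, the knockdown libraries followed the control-siRNA ones: peaks of 787 and 1456 bp in control and of 749 and 895 bp in knockdown libraries faced none in any library with EGF (log2 difference -2.68 ± 0.33; limma adjusted p = 0.0111). This site lies on the same chromosome as chr15:88031478-88034917, the region named above that shrank with EGF. Among the 10 strongest lost regions, only chr15:88077852-88079307 and chr8:46417900-46419163 had no peak in either knockdown library with EGF. Each of the others had a peak in at least a single knockdown library with EGF. Of the 10 strongest lost regions 7 passed the test, which likewise used the covered lengths that defined them as lost. Gained and lost regions lay at a median of 21.1 and 16.2 kb from the nearest shared region, where shared regions lay at a median of 15.9 kb from the next.

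Neighbouring regions moved together to a small degree in pileup. For the 2291 pairs of shared regions less than 5 kb apart, the differences between EGF and control correlated with r = 0.26 for pileup percentile, 0.19 for width and 0.10 for fold percentile. At gaps of 50 to 100 kb (2875 pairs) the values were 0.08, 0.08 and 0.01. The pairs share libraries and local background, whose own differences correlated with r = 0.06 at the shorter gap. In the pairs under 5 kb apart, 4 of the 64 pileup-higher regions (6.25%) were followed by another, where 2.49% of all shared regions were called so. Of the 49 pileup-lower regions 1 (2.04%) was followed by another, where 1.88% of all were called so.

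A few longer stretches held several called regions. Only 4 stretches had at least 3 pileup calls of the same direction with gaps under 50 kb between shared regions. The densest, chr19:53511196-53604861, is 93.7 kb long and held 5 shared regions, of which 4 were called higher, along with 2 gained regions. Its mean pileup percentile was 32.7 and 37.7 in control and 68.6 and 72.7 in EGF libraries, and 30.3 and 31.5 without and 58.3 and 58.3 with EGF in knockdown libraries. The mean fold percentile rose as well, from 29.5 and 34.4 to 60.6 and 64.9, and by pileup this stretch was higher with EGF in all 4 libraries that had received it. In chr11:6288644-6345859, a stretch of 57.2 kb in which 3 of 4 shared regions were called lower, the mean pileup percentile was 86.1 and 89.1 in control and 75.6 and 76.3 in EGF libraries. Its mean fold percentile was 75.5 and 80.5 against 78.3 and 77.6.

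Most pileup and width calls had the same direction in the knockdown libraries. These gave no estimate to the calls but entered the fit through the shared spread. Of the pileup-higher regions held by all 8 libraries, 407 of 424 (96.0%) were also higher with EGF in knockdown libraries, against 49.8% of all 16851 regions. Of the pileup-lower ones, 290 of 321 (90.3%) were lower, against 50.2%. Fold calls, which cannot be told apart from the background, kept their direction about as often. These were 2439 of 2557 fold-higher regions (95.4%, against 49.8% of all) and 2492 of 2592 fold-lower regions (96.1%, against 50.2%). The same direction in knockdown libraries therefore does not set pileup apart from fold. Of the narrower regions 294 of 302 (97.4%) were narrower, against 80.1% of all regions, and of the wider ones 46 of 59 (78.0%) were wider, against 19.5%. The background differences of the 2 sets of libraries correlated across regions with r = 0.94 and those of fold with r = 0.78. Those of pileup correlated with r = 0.56 and those of width with r = 0.51 (n = 16851 regions each). The sets are therefore not independent where the background enters.

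The size of the change was smaller in knockdown libraries for the regions called in control-siRNA cells, which were chosen for their size in the latter. The median pileup difference was 14.5 points for the 424 higher and -10.3 points for the 321 lower regions. By presence, 136 of the 688 gained regions (19.8%) had a peak in both knockdown libraries with EGF and in neither without, and 12 had the reverse. Of the 1508 lost regions, 564 (37.4%) were held by both knockdown libraries without EGF and by neither with EGF, and 1 had the reverse. The share of all merged regions with either pattern is not given here, so these shares have no reference to be set against. A test of the difference in EGF effect between control-siRNA and knockdown libraries (the interaction in limma) called 0 of 24104 regions for covered length (1926 at an unadjusted p under 0.05) and 0 of 17546 for width (1047). It called 2 for fold percentile and 3 for pileup percentile.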

How the data were processed

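H3K27ac libraries of 266-6 cells were compared, 2 control against 2 EGF, grouped by their titles; 4 knockdown libraries entered for the spread and for side comparisons. The authors deposited 1 peak list per library in build mm9, so peaks were called per sample. The submitters' processing notes name MACS2 (2.1.1.20160309.0), deepTools (3.0.2), SAMtools and Bowtie2 (2.3.4.2), with no role for each. How the caller was set and whether it had an input library is not given in the sources used here. In the files, the deposited score equals 10 times the −log10 q of the peak, rounded down. Fold enrichment was deposited as a ratio to the background of the peak caller, together with a −log10 p and a −log10 q from the authors' peak calling. All are the authors' values, used to describe, rank or filter peaks within a list. Depth is unknown, so no counting interval is given.

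Peaks of the 4 lists were merged, and a region took the highest fold of its peaks. Fold = (pileup + 1)/(background + 1) and p = P(Poisson(background) ≥ pileup) were solved for the peak of highest fold, taking the larger root. Percentiles were ranked within each library over regions held by all 4. limma 3.58.1 (empirical Bayes with a trend, R 4.3.3) was fitted to all 8 libraries, 1 mean per group, with Benjamini-Hochberg adjustment over all regions tested and a threshold of 0.05. A knockdown library without a peak in a region was left out for that region, except for covered length, where regions with a peak in at least 2 of the 4 lists were tested with 0 bp where a library had none. Totals were compared by exact permutation. The fits, the interval steps and the solving of background and pileup were run on simulated data. Those data were made with the same equations and with normal noise, so the runs do not test whether these assumptions hold here. Python 3.11.15 with SciPy 1.17.1, NumPy 2.4.6, pandas 2.3.3 and matplotlib 3.10.9 served for the rest.

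Named regions are the 10 gained and 10 lost regions whose lower fold percentile in the lists was highest, the 10 with the largest called and non-overlapping change in each direction for width and fold percentile, the widest and up to 5 at the top by fold. The text gives some of each. The same rule was used for pileup, for regions called in 3 measures, for stretches and for interactions, all added after the data were seen. Members, lists and tests were chosen with earlier results of these data known. Alternatives were stricter peaks (−log10 q of at least 5), lists of equal length, merging across gaps, coverage of 50%, other pseudocounts, no filter, quantile normalization, other ranks, 4 libraries alone, each library left out and a replicate block.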

Additional observations from a re-analysis of the deposited data

Results flagged for a closer look

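The effect of EGF differed between control-siRNA and knockdown libraries in 4 regions, by the interaction in limma over 17546 regions; values are the EGF difference in knockdown libraries minus that in control-siRNA libraries, in percentile points. In chr12:88240254-88241464 it was -99.4 ± 9.70 for fold (SE; adjusted p = 0.0189) and -88.2 ± 7.26 for pileup (adjusted p = 0.00816). The pileup percentile of that region was 88.8 and 90.9 in the knockdown libraries without EGF and 0.83 to 7.23 in the other 6 libraries. In chr4:129188420-129189831 it was -89.1 ± 9.41 for pileup (adjusted p = 0.0363), with percentiles of 96.3 and 89.2 in the knockdown libraries without EGF and 3.58 to 20.1 in the others. In chr11:86768005-86769847 it was -59.3 ± 6.70 for pileup (adjusted p = 0.0429), with 62.3 and 64.4 against 0.741 to 7.07. In chr8:111227011-111233413 it was 43.5 ± 4.82 for fold (adjusted p = 0.0311), with fold percentiles of 56.7 and 55.7 in the knockdown libraries without EGF and 87.4 to 99.1 in the others. In each of the 4 regions the knockdown vehicle libraries stood apart, and the effect of EGF in control-siRNA cells was not called for fold or pileup.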

How the results depend on the processing

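Depth is unknown and each group has 2 libraries, so calls lean on the spread borrowed from all 8. With the 4 libraries alone, 0 regions were called for covered length, width and pileup in either direction, against 1950 and 1967 for fold. Leaving out each library gave 367 to 1659 higher and 916 to 2065 lower for covered length, 0 to 581 wider and 0 to 800 narrower, 1690 to 2379 and 1749 to 2446 for fold, and 12 to 269 and 9 to 153 for pileup. It gave 753 to 2081 gained and 1947 to 6271 lost regions. Peak numbers differed (EGF minus control) by -5560.5 to 553.5 and covered length by -12.5 to 0.377 Mb; the higher bounds, without control library 2, turn the direction. Lists of equal length give a difference of 0 peaks by construction.

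Peaks with −log10 q of at least 5, a setting that tests fewer regions, gave 164 higher and 723 lower for covered length, 22 wider and 133 narrower, 1286 and 1314 for fold, and 209 gained and 762 lost. Quantile normalization gave 996 higher for covered length and 207 wider. Lists of equal length gave 935 higher for covered length and 1228 gained against 1114 lost, which turns the direction. Fold ranked by −log10 q gave 1363 and 1281, within the whole list 1636 and 3001, and by estimated pileup 447 and 337. The cause of these moves was not tested.

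Deviations of same-numbered libraries correlated across regions with r between -0.01 and 0.06. Whether same-numbered libraries were handled together is not in the labels, and with 2 libraries per group these values cannot settle it. The replicate block gave 366 and 1120 for covered length, 21 and 127 for width, 2647 and 2679 for fold and 395 and 277 for pileup.

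Of the named values, 7 turned sign in fits without 1 library, none of them called in the fit of all 8. Their ranges were -0.0028 to 0.020 (chr4:126698091-126699962), -0.011 to 0.061 (chr18:7868164-7870487) and -0.084 to 0.011 (chr17:46991850-46996080) for fold, and -4.72 to 1.33 (chr11:86768005-86769847), -2.09 to 4.31 (chr12:88240254-88241464), -5.55 to 7.59 (chr4:129188420-129189831) and -4.36 to 2.52 (chr8:111227011-111233413) for pileup. All other named values kept their direction under each setting; counted over values and settings, a call was lost 257 times and gained 12 times.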

Other observations

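The calls were spread over all chromosomes with some unevenness, given here as values with no test. On chromosome 15, 42 of 894 shared regions (4.70%) were pileup-lower and 23 (2.57%) pileup-higher. Chromosome 4 held 49 pileup-higher (3.73%) and 28 pileup-lower regions (2.13%) of 1313 shared ones. On chromosome 18, 10 of 472 shared regions (2.12%) were pileup-higher and 2 (0.424%) pileup-lower. The X chromosome had 9 gained and 9 lost regions among 628 (1.43% each).

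Width calls varied with the size of the region. That size is the merged length over the same 4 lists, so a region much wider in either group is also larger by construction. In the narrowest 4488 shared regions (294 to 1357 bp) 0.156% were wider and 0.735% narrower with EGF, and in the widest 4486 (2788 to 60977 bp) 0.602% and 3.74%. Pileup calls went from 1.76% higher and 1.23% lower in the former to 2.74% and 2.41% in the latter.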
